A study of Mus musculus with 18 samples.

Results

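The genes described here are 8 mouse genes that were raised in round spermatids of 2 GRTH mutants: Gm15459, Gm48277, Sln, Masp1, Cemip2, Slc8b1, Efnb1 and Sel1l3. They are 8 of the 54232 genes in the count table, and all 8 were among the 21058 genes that passed the filter on low counts. They were chosen by a rise of their counts in KO, KI or both against wild type, so their differences from wild type (WT) are given as a description with no test. Of the 8 genes, 6 code for protein, Gm48277 is a long intergenic non-coding RNA and Gm15459 is a processed pseudogene.

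Round spermatids (RS) are haploid germ cells between the end of meiosis and the start of elongation. RNA was taken from RS of mice aged 75 to 85 days that were WT, GRTH-KO (KO) or GRTH-KI (KI), with 6 libraries per genotype and 18 in all. GRTH is the RNA helicase encoded by Ddx25. KO mice lack the protein, and KI mice carry a human GRTH gene with a missense mutation and lack the phosphorylated form. RS were separated by sedimentation through a BSA gradient after enzymatic digestion of the tubules, and the libraries were stranded and made without polyA selection. Whether each library came from a separate mouse is not given in the sources used here, so an error over libraries measures the spread between these samples, which may be technical.

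Assigned counts were between 18766971 and 26776555 per library. The counts of Ddx25 were between 11433 and 14208 in WT and between 1005 and 2074 in KO. They were between 1 and 13 in 5 of the KI libraries and 1345 in the library labelled KI 4. Counting was on mouse genes, so these counts may miss transcripts of the human GRTH gene in KI. The paper describes the non-phosphorylated protein as unaffected in KI mice. The library labelled KI 4 also differed less from KO 2 than any other pair of libraries did (an index of 1.59, where counting noise gives 1). A further 6 pairs within a genotype had an index between 2.05 and 3.24, and the next lowest was 4.73. These close pairs were WT 1 and WT 2, WT 3 and WT 4, WT 5 and WT 6, KO 4 and KO 5, KI 1 and KI 2, and KI 3 and KI 5. Every WT library was thus in a close pair. Each n, SD, SE and adjusted p below counts every library as separate, which may overstate the number of samples. A reduced set therefore held 1 library of each close pair and left out KI 4. Calls that end and values that move by over 1.5 times in the reduced set are given beside the results. All 10 round spermatid markers were detected, with summed levels of 1544 to 2278 CPM in WT, 1033 to 2084 CPM in KO and 1090 to 1688 CPM in KI. CPM is a gene's count per 1000000 counts of its library, scaled by TMM. By edgeR's quasi-likelihood test (adjusted p under 0.1), 0 of the 10 were higher and 3 lower in KO, and 0 higher and 5 lower in KI. Over all genes tested, 16.4% were higher and 13.5% lower in KO, and 16.1% and 15.4% in KI. Of 10 pachytene spermatocyte markers, 1 was higher and 0 lower in KO, and 2 higher and 1 lower in KI. Of 8 spermatogonium markers, 3 were higher in KO and 2 in KI, and 0 lower. In bulk RNA, fewer cells of a type and less RNA per cell cannot be told apart.

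The 6 coding genes belong to separate systems. Sln encodes sarcolipin, a small membrane peptide that binds and inhibits the SERCA calcium pumps of muscle, and Slc8b1 encodes NCLX, which moves calcium out of mitochondria in exchange for sodium. Masp1 encodes a serine protease of the lectin arm of complement, Cemip2 a cell surface protein described as a hyaluronidase, Efnb1 the membrane ligand ephrin-B1 of the Eph receptors, and Sel1l3 a relative of Sel1l, the adaptor of the ER-associated degradation machinery.

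In every library of KO and every library of KI, each of the 8 genes had a higher normalized level than in any WT library. Of all genes tested, 6.62% had such a gap in KO, 5.97% in KI and 3.73% in both, but this gap lies in the contrast by which the 8 genes were chosen. The KO and KI comparisons share the same 6 WT libraries, and their values are therefore set side by side.

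**Figure D1:**
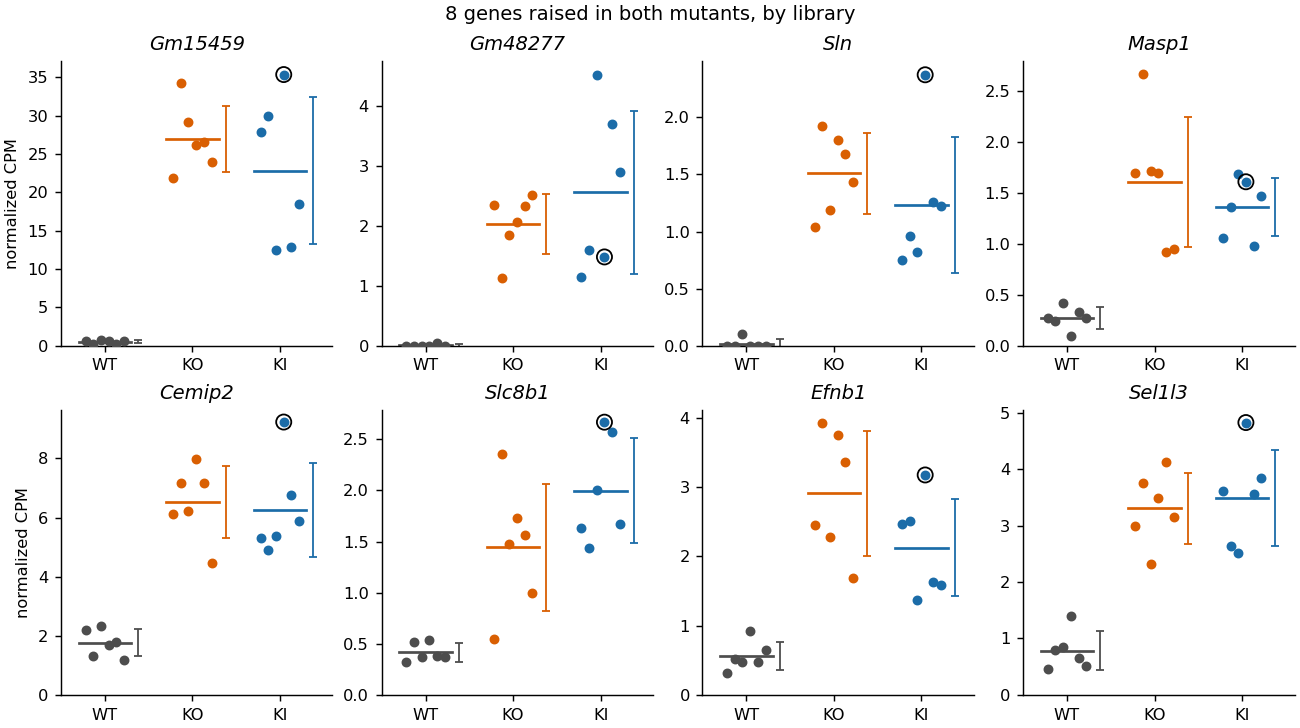
Normalized CPM of the 8 raised genes in each of the 18 libraries. Points are libraries in replicate order from left to right, lines are means, bars beside them are SD (n = 6) and the black circle marks the library labelled KI 4. The WT points lie below all KO and KI points in each panel, and the gap is narrowest for Slc8b1, where KO 1 was at 0.545 CPM and the highest WT library at 0.533 CPM.

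Gm15459 (ENSMUSG00000100801, chr5:5781615-5783555, minus strand, GRCm38) had the most assigned counts of the 8 genes in the mutants. Its counts were 5 to 15 over the WT libraries (median 14.5), 400 to 783 over KO (median 638.5) and 275 to 835 over KI (median 542). The groups did not overlap, and the lowest KI libraries were KI 3 and KI 5 with 275 counts each. The mean level was 0.562 ± 0.239 CPM in WT (SD, n = 6), 26.96 ± 4.33 CPM in KO and 22.8 ± 9.56 CPM in KI. The log2 fold change against WT was 5.59 (SE 0.31) in KO and 5.35 (SE 0.31) in KI.

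Gm15459 is a single-exon copy of the coding sequence of Hspa8, the gene of the constitutive chaperone HSC70. The 1941 bases of its exon align without a gap to the Hspa8 coding sequence of GENCODE M21 and differ at 5 positions, an identity of 99.7%. The differences are G114A, C414T, C549T, G1222A and C1440T, with the Hspa8 base first, the position counted from 1 at the 5′ end of Gm15459, and the Gm15459 base last. The windows below hold 3 of these positions. A read pair wholly within the aligned sequence can separate the 2 genes only where it covers such a position. The differing base is in capitals, and the windows are 5′ to 3′ from positions 94 to 134, 394 to 434 and 1202 to 1242, which for Gm15459 are chr5:5783422-5783462, chr5:5783122-5783162 and chr5:5782314-5782354 on the minus strand of GRCm38.
Hspa8 at 114: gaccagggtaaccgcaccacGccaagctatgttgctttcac
Gm15459 at 114: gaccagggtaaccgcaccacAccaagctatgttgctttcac
Hspa8 at 414: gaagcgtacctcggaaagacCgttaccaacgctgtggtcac
Gm15459 at 414: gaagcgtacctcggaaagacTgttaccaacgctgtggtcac
Hspa8 at 1222: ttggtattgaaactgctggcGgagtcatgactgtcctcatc
Gm15459 at 1222: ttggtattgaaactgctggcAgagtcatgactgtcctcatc

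Of the 100-base windows of Gm15459, 96.1% also occurred in an annotated transcript of another gene. For the other 7 genes this share was 0 in Sln, Masp1, Slc8b1, Efnb1 and Sel1l3, 0.0352% in Cemip2 and 4.48% in Gm48277, whose shared windows were those of the antisense gene Gm35177. Counting was by strand, and Gm26825 is antisense to Gm15459.

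The counts of Gm15459 held an almost fixed ratio to those of Hspa8 in the mutants. Gm15459 took between 0.381% and 1.41% of the summed counts of both genes in the 6 WT libraries, between 23.5% and 25.4% in KO and between 21.1% and 25.1% in KI. WT averaged 0.809 ± 0.361%, KO 24.2 ± 0.899% and KI 23.7 ± 1.56% (SD, n = 6). This narrow range held although Hspa8 itself varied from 933 counts in KI 5 to 2628 in the library labelled KI 4. The share in KO 2, whose counts resembled those of KI 4, was 23.6%.

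Hspa8 lies on chromosome 9 (chr9:40800984-40810087), 5.26 Mb from Ddx25. Its log2 fold change was 0.29 (SE 0.21, adjusted p = 0.369) in KO and 0.06 (SE 0.21, adjusted p = 0.89) in KI by edgeR's quasi-likelihood test. With the counts of both genes summed, the log2 fold change was 0.67 in KO and 0.44 in KI, in place of 5.59 and 5.35 for Gm15459 alone. The value for Gm15459 is therefore uncertain. Whether its reads came from the pseudogene or from transcripts of Hspa8 that match it at these bases cannot be told apart from the counts.

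**Figure D2:**
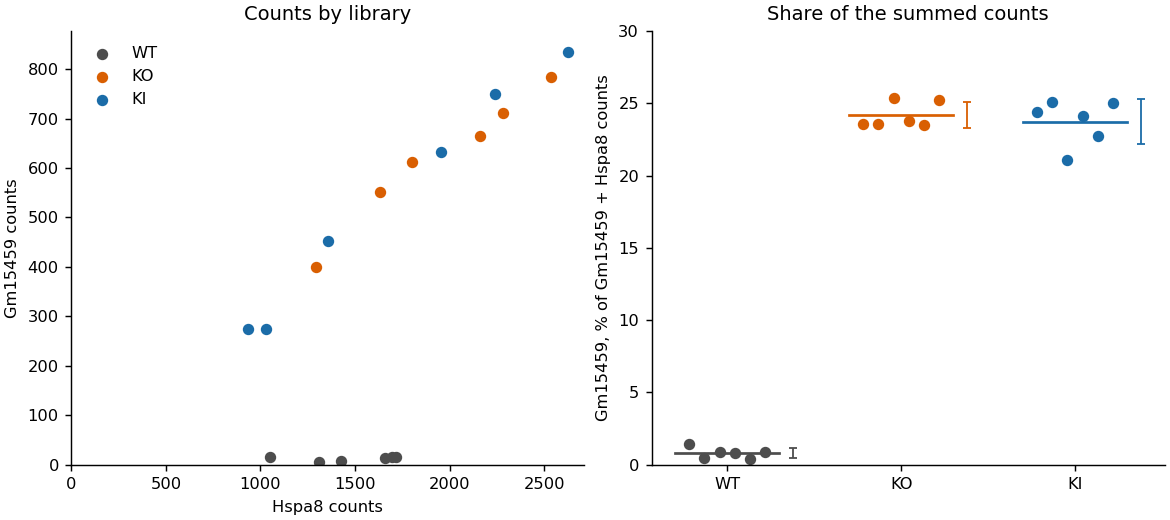
Left, counts of Gm15459 against counts of Hspa8 in each library. Right, the Gm15459 share of the summed counts of both genes in percent, with lines at the means and bars for SD (n = 6). The KO and KI libraries lie along a single line between 21.1% and 25.4%, and the WT libraries lie at or below 1.41%.

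Gm48277 (ENSMUSG00000111858, chr9:40555086-40560929, minus strand) went from nearly no counts in WT to at least 26 counts in each mutant library. WT had 0 counts in 5 libraries and 1 count in WT 5. KO had between 26 and 58 counts (median 49.5) and KI between 26 and 99 (median 55.5). No library of either mutant came near the WT counts, and KI 3, KI 5 and KI 6 were the highest of all, with 99, 79 and 71 counts. From 280 pooled counts in KO, 350 in KI and 1 in WT, the ratio to WT was 263 in KO (95% counting interval 46.8 to 10415) and 325 in KI (57.9 to 12861). The reduced set gave ratios of 121 and 183. The interval takes in counting error alone and leaves out the spread between libraries. Duplicates were marked but not removed, so PCR copies are counted as separate fragments. Gm48277 lies 5.02 Mb from Ddx25, and 246 kb separate its lower coordinate from that of Hspa8.

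Sln (ENSMUSG00000042045, chr9:53850164-53854560, plus strand) also lies on chromosome 9, 18.31 Mb from Ddx25. Its coding sequence is shown because the peptide is short: it spans 96 bases, 32 codons with the stop, or 7.28% of the 1318 bases of the transcript. It lies at chr9:53853473-53853568 on the plus strand of GRCm38 and is given with that of Pln, the gene of the related SERCA inhibitor phospholamban, at chr10:53343864-53344022 on the plus strand. Both are from the GENCODE M21 transcripts, with the start and stop codons in capitals.
Sln: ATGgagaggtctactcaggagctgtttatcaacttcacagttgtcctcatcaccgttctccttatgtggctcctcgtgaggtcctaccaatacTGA
Pln: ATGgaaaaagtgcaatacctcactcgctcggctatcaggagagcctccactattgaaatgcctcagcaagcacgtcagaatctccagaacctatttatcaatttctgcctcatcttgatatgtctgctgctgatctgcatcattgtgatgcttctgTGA

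Sln had 0 counts in 5 WT libraries and 2 counts in WT 3. KO had between 19 and 49 counts (median 37.5) and KI between 17 and 56 (median 25.5). The mutant libraries were all above WT, and the highest was the library labelled KI 4. Pooled, WT had 2 counts, KO 212 and KI 172, a ratio to WT of 99.5 in KO (95% counting interval 27.2 to 827) and 79.8 in KI (21.8 to 664). With the reduced set these were 46.3 and 30.4. Sln is best known from muscle, and the summed level of 9 skeletal and cardiac muscle markers was between 20.7 and 37.1 CPM in WT, between 10.8 and 36.1 CPM in KO and between 12.6 and 22.2 CPM in KI, with Tnnt3 at 3 counts or fewer in every library. Most of this sum was Myl4 alone, with means of 23.8 CPM in WT, 15.5 CPM in KO and 13.1 CPM in KI. Of the 4 markers tested, 1 was higher and 0 lower in KO, and 0 were higher and 1 lower in KI. The shares over all genes tested were 16.4% and 13.5% in KO and 16.1% and 15.4% in KI.

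The calcium genes around Sln were listed by function. Sln was chosen for its rise, so the sizes of their changes are not compared with that of Sln. Of 26 listed pump, inhibitor and ER calcium genes, 22 were tested, and 4 were higher and 1 lower in KO, against 16.4% and 13.5% of all genes tested. In KI, 3 were higher and 1 lower, against 16.1% and 15.4%. Pln was at 9.11 ± 1.09 CPM in WT, 8.81 ± 2.16 CPM in KO and 7.92 ± 1.43 CPM in KI (adjusted p = 0.879 and 0.41). Of the pumps, Atp2a2, the SERCA2 gene, rose in KO by a log2 fold change of 0.48 (SE 0.11, adjusted p = 0.00216). Its value in KI was 0.28 (SE 0.11, adjusted p = 0.0657), a call lost when any 1 of 6 libraries was left out, with adjusted p up to 0.152, and in the reduced set (adjusted p = 0.362). Atp2a1 and Atp2a3 were both under 1 CPM in all genotypes and were not called.

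Among the ER genes, Itpr3, an inositol trisphosphate receptor channel, rose by 0.82 (SE 0.16) in KO and 0.80 (SE 0.16) in KI. Calr3, a testis calreticulin, fell by 0.60 (SE 0.16) and 0.83 (SE 0.16), from 107 ± 15.2 CPM in WT. Atp2b1, a plasma membrane calcium pump, rose by 0.75 (SE 0.17) in KO. In KI its log2 fold change was 0.45 (SE 0.17, adjusted p = 0.0605) and was not called without KI 1 or without KI 4, when the adjusted p rose to 0.104 and 0.172, or in the reduced set (adjusted p = 0.23).

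Slc8b1 (ENSMUSG00000032754, chr5:120511168-120534024, plus strand) had 7 to 13 counts in the WT libraries (median 8), 10 to 54 in those of KO (median 35) and 36 to 63 in those of KI (median 42.5). KO 1, with 10 counts, lay within the WT range of raw counts and only just above the highest WT library after scaling. The means were 0.416 ± 0.0893 CPM in WT, 1.44 ± 0.623 CPM in KO and 1.998 ± 0.516 CPM in KI. The log2 fold change was 1.79 (SE 0.30) in KO and 2.24 (SE 0.29) in KI.

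Of 19 mitochondrial calcium genes, 18 were tested. In KO, 4 were higher and 1 lower, against 16.4% and 13.5% of all genes tested. In KI, 4 were higher and 2 lower, against 16.1% and 15.4%. Mcu, the pore of the calcium uniporter, was at 15.01 ± 2.41 CPM in WT, 11.6 ± 3.73 CPM in KO and 8.92 ± 1.81 CPM in KI. It fell in KI by 0.75 on the log2 scale (SE 0.20, adjusted p = 0.00654), with an adjusted p of 0.103 in the reduced set. Its log2 fold change in KO was -0.37 (adjusted p = 0.186), and without WT 6 its adjusted p was 0.0953. Ghitm, an inner membrane protein, fell by 0.82 (SE 0.16) in KO and 0.91 (SE 0.16) in KI. Letm1 had log2 fold changes of 0.42 (SE 0.13) and 0.46 (SE 0.13), calls that were both lost in the reduced set (adjusted p = 0.158 and 0.122). The protease subunit Afg3l2 rose by 0.63 (SE 0.11) and 0.67 (SE 0.11).

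Masp1 (ENSMUSG00000022887, chr16:23449417-23520815, minus strand) had 2 to 8 counts in the WT libraries (median 6), 22 to 61 in those of KO (median 33.5) and 21 to 38 in those of KI (median 35). KO 2 was the highest library, and no mutant library reached down to WT. The means were 0.274 ± 0.108 CPM in WT, 1.60 ± 0.639 CPM in KO and 1.36 ± 0.288 CPM in KI, and the log2 fold change was 2.53 (SE 0.31) in KO and 2.30 (SE 0.31) in KI. Its closest relative, Masp2, did not pass the filter and totalled 37 counts over WT, 25 over KO and 35 over KI.

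The complement list held more genes that rose than fell in both mutants. Of its 26 genes, 17 were tested, with 8 higher and 2 lower in KO, against 16.4% and 13.5% of all genes tested. In KI, 10 were higher and 3 lower, against 16.1% and 15.4%. The median log2 fold change was 0.53 in KO and 0.60 in KI, against medians of 0.03 and 0.05 over all genes tested. C1ra and C1s1, the proteases of the classical C1 complex, were at 0.299 ± 0.232 and 0.650 ± 0.214 CPM in WT. In KI they rose by 1.26 (SE 0.45, adjusted p = 0.0427) and 1.18 (SE 0.33, adjusted p = 0.0104), and C1ra was not called without KI 4 (adjusted p = 0.127). Neither was called in KI in the reduced set (adjusted p = 0.429 and 0.237). In KO their values were 1.08 (SE 0.46, adjusted p = 0.0937) and 0.81 (SE 0.33, adjusted p = 0.0867), calls that were lost when any 1 of 12 and of 8 libraries was left out, with adjusted p up to 0.215 and 0.245, and in the reduced set (adjusted p = 0.465 and 0.174). C1qb, a subunit of C1q, fell by 1.20 (SE 0.22) in KO and 0.96 (SE 0.21) in KI. The other C1q subunits, named after their values were seen, went the other way. C1qc was at 0.506 ± 0.223 CPM in WT and had a log2 fold change of 1.03 (SE 0.36, adjusted p = 0.0395) in KO and 1.11 (SE 0.36, adjusted p = 0.025) in KI, and neither call was kept in the reduced set (adjusted p = 0.127 and 0.361) nor that in KO without KO 2 (adjusted p = 0.129). C1qa had values of 0.79 (SE 0.35, adjusted p = 0.113) and 0.68 (SE 0.35, adjusted p = 0.172), and was called in KO without WT 6, KO 1 or KO 4 and in KI without WT 6 (adjusted p between 0.0506 and 0.0883). The summed level of 6 macrophage markers was between 7.39 and 12.7 CPM in WT, between 9.05 and 20.4 CPM in KO and between 12.5 and 22.3 CPM in KI. Of these 6, 2 were higher in KO and 3 in KI, and 0 were lower, where 16.4% and 16.1% of all genes tested were higher. The summed level of 6 endothelial markers was between 11.3 and 18.04 CPM in WT, between 16.9 and 29.99 CPM in KO and between 20.2 and 28.2 CPM in KI, with 2 of the 5 tested higher in each mutant. Most of this sum was Vwf, with means of 10.8, 19.6 and 19.2 CPM in WT, KO and KI. Tek was at 0.768, 2.38 and 1.94 CPM. The others did not share this rise, with Pecam1 at 0.742, 0.608 and 0.787 CPM, Cdh5 at 0.886, 0.782 and 0.781 CPM, Kdr at 1.53, 1.45 and 0.775 CPM, and Emcn under 0.05 CPM. The part of macrophages and endothelial cells in the complement values was not tested.

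Cemip2 (ENSMUSG00000024754, chr19:21778342-21858327, plus strand) was the gene with most counts in WT. It had 26 to 48 counts in the WT libraries (median 36.5), 103 to 217 in those of KO (median 147.5) and 118 to 218 in those of KI (median 133.5). The lowest mutant library had more counts than the highest WT library. The means were 1.76 ± 0.4549 CPM in WT, 6.52 ± 1.22 CPM in KO and 6.25 ± 1.60 CPM in KI, and the log2 fold change was 1.89 (SE 0.20) in KO and 1.83 (SE 0.20) in KI. In the reduced set, these values were 1.58 and 1.45.

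The paralogue Cemip, which depolymerises hyaluronan, was at 24.8 ± 3.68 CPM in WT, 26.6 ± 10.3 CPM in KO and 22.7 ± 4.80 CPM in KI (adjusted p = 0.793 and 0.717). Of 21 hyaluronan genes, 13 were tested, with 5 higher and 2 lower in KO, against 16.4% and 13.5% of all genes tested. In KI, 4 were higher and 3 lower, against 16.1% and 15.4%. Has3, a hyaluronan synthase, rose by 1.03 (SE 0.27) in KO and 1.24 (SE 0.27) in KI from 0.758 ± 0.214 CPM in WT. Spam1, the sperm hyaluronidase PH-20, fell by 0.76 (SE 0.16) and 1.04 (SE 0.16) from 162 ± 36.4 CPM, and the link protein gene Hapln2 fell by 1.10 (SE 0.18) and 1.34 (SE 0.19).

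Efnb1 (ENSMUSG00000031217, chrX:99136130-99148991, plus strand) is the only X-linked gene of the 8. It had 7 to 19 counts in the WT libraries (median 11.5), 39 to 102 in those of KO (median 66) and 30 to 75 in those of KI (median 47.5). The groups did not overlap with WT, and KI 3, KI 5 and KI 6 were the lowest mutant libraries in CPM. The means were 0.560 ± 0.205 CPM in WT, 2.91 ± 0.900 CPM in KO and 2.13 ± 0.703 CPM in KI, and the log2 fold change was 2.37 (SE 0.28) in KO and 1.92 (SE 0.28) in KI.

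The related ligands Efnb2 and Efnb3 were not called in either mutant, with log2 fold changes of 0.38 (SE 0.19) and 0.48 (SE 0.27) in KO and of 0.23 (SE 0.19) and 0.37 (SE 0.27) in KI. Efnb2 had an adjusted p of 0.153 in KO and of 0.0686 without KO 6. Of 21 ephrin and Eph genes, 17 were tested, with 4 higher and 2 lower in KO, against 16.4% and 13.5% of all genes tested. In KI, 5 were higher and 1 lower, against 16.1% and 15.4%. The receptors Ephb2 and Ephb3, which bind ephrin-B ligands, rose in both mutants from low levels. Ephb2 was at 0.252 ± 0.192 CPM in WT and rose by 1.33 (SE 0.44, adjusted p = 0.033) in KO and 1.71 (SE 0.43, adjusted p = 0.00527) in KI. Ephb3 was at 0.403 ± 0.166 CPM in WT and rose by 1.64 (SE 0.31) and 1.93 (SE 0.31). Ephb1, a further receptor of this class that was named after its values were seen, was at 3.36 ± 1.67 CPM in WT and fell by 1.62 (SE 0.33, adjusted p = 9.17e-04) in KO, with a log2 fold change of -0.43 (SE 0.31, adjusted p = 0.343) in KI. Ephb6, a receptor without kinase activity, fell by 1.08 (SE 0.34, adjusted p = 0.0214) in KI, a call lost in the reduced set (adjusted p = 0.206). In KO its log2 fold change was -0.80 (adjusted p = 0.0848), a call that was lost when any 1 of 7 libraries was left out, with adjusted p up to 0.214, and in the reduced set (adjusted p = 0.488).

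Sel1l3 (ENSMUSG00000029189, chr5:53107083-53213927, minus strand) had 10 to 29 counts in the WT libraries (median 15), 49 to 103 in those of KO (median 79.5) and 55 to 114 in those of KI (median 79). KO and KI covered nearly the same range, well above WT. The means were 0.781 ± 0.344 CPM in WT, 3.31 ± 0.629 CPM in KO and 3.50 ± 0.851 CPM in KI, and the log2 fold change was 2.08 (SE 0.24) in KO and 2.16 (SE 0.24) in KI.

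Sel1l itself rose by 0.58 (SE 0.12, adjusted p = 0.00101) in KO and 0.48 (SE 0.12, adjusted p = 0.00448) in KI, and the KI call was lost in the reduced set (adjusted p = 0.126). Sel1l2 was at 72.1 ± 25.3 CPM in WT and 49.6 ± 7.21 CPM in KI, with a log2 fold change of -0.54 (adjusted p = 0.0894) whose call was lost when any 1 of 12 libraries was left out, with adjusted p up to 0.227, and in the reduced set (adjusted p = 0.361). In KO it was -0.31 (adjusted p = 0.377), and without KO 1 its adjusted p was 0.0853. All 22 genes of the Sel1l and ER-associated degradation list were tested. In KO, 6 were higher and 6 lower, against 16.4% and 13.5% of all genes tested. In KI, 4 were higher and 7 lower, against 16.1% and 15.4%. Edem1, a lectin that marks misfolded glycoproteins, rose by 1.27 (SE 0.18) and 0.91 (SE 0.18). Ube2j1, the ubiquitin-conjugating enzyme of this pathway, fell by 1.28 (SE 0.20) and 1.49 (SE 0.20) from 375 ± 56.2 CPM. Herpud1, a membrane protein of the same complex, fell by 1.62 (SE 0.12) in KO and 1.60 (SE 0.12) in KI, from 159 ± 15.97 CPM to 51.7 ± 7.24 and 52.5 ± 5.42 CPM.

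Across the 6 lists, 109 of 135 genes were tested. In KO, 31 were higher and 14 lower, and in KI, 30 were higher and 17 lower. Over all genes tested the shares were 16.4% and 13.5% in KO and 16.1% and 15.4% in KI. In the reduced set, 16 were higher in KO and 13 higher and 10 lower in KI. Fewer genes were called in that set as a whole. Of 21543 tested, 1759 were higher in KO, and 1390 were higher and 1647 lower in KI. Past 1 log2 unit, Herpud1 was the only gene called, in the lower direction in both mutants (adjusted p = 0.00133 in KO and 0.00169 in KI by glmTreat), and 0 genes were called higher. The KI call was lost in the reduced set, when 0 genes were called lower in KI (adjusted p = 0.291 for Herpud1). The shares called past 1 log2 unit over all genes were 0.598% higher and 1.13% lower in KO, and 0.522% and 1.43% in KI.

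**Figure D3:**
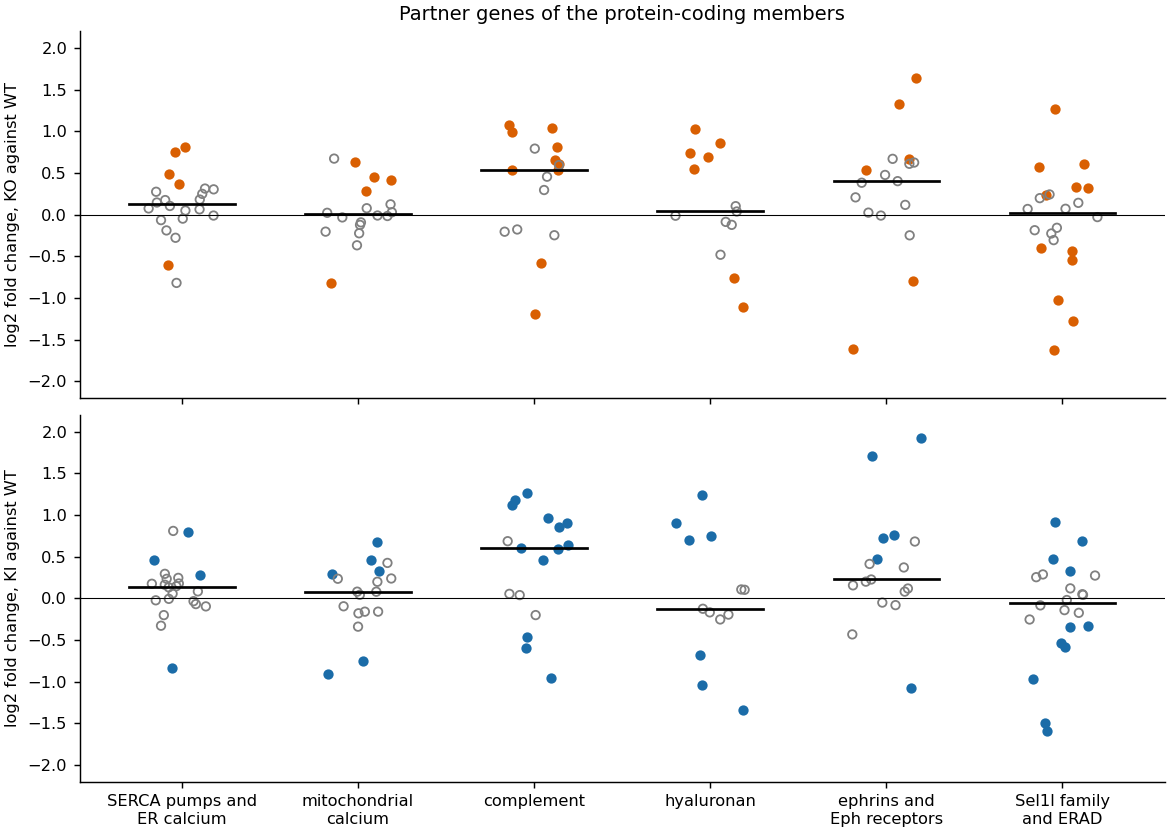
Log2 fold change against WT in KO (top) and KI (bottom) of the 109 tested genes in 6 lists of partners of the coding genes. Filled points had an adjusted p under 0.1 by edgeR's quasi-likelihood test, open points did not, and black lines are medians. The complement medians, 0.53 and 0.60, are the highest, and points lie on both sides of 0 in each list.

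The order of levels per exon length differed between WT and the mutants. In RPKM, the CPM divided by exon length in kilobases, WT levels ran from Gm15459 at 0.289 ± 0.123 and Cemip2 at 0.264 ± 0.0682 down to Sln at 0.0134 and Gm48277 at 0.00453. In KO, Gm15459 was at 13.9 ± 2.23 RPKM, followed by Gm48277 at 1.17 ± 0.287, Sln at 1.15 ± 0.267, Cemip2 at 0.977 ± 0.183 and Efnb1 at 0.843 ± 0.261. Each of the last 4 lay within 1 SD of its neighbour in this order, by the larger of their SDs. Slc8b1 at 0.417 ± 0.180 and Sel1l3 at 0.336 ± 0.0639 came next, also within 1 SD of each other, and Masp1 was lowest at 0.163 ± 0.0650. In KI, Gm48277 was at 1.47 ± 0.784 RPKM and Sln at 0.934 ± 0.452, and Masp1 was again the lowest of the 8, at 0.138 ± 0.0293. Apart from Gm15459, which went from the 13.6th percentile of tested genes in WT to the 82.2nd in KO and the 79.8th in KI, the genes stayed in the lower part of the transcriptome, with Gm48277 highest at the 40.7th percentile in KI. For Gm15459, 96.1% of the 100-base windows also occur in other genes, and its reads may come from Hspa8 transcripts. Its RPKM and percentile therefore cannot be read as the level of the pseudogene transcript.

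KI and KO were then compared with each other, a contrast not used directly to choose the genes. A choice of genes raised in both mutants can limit how far KO and KI differ, so this contrast is not independent of the choice. None of the 8 genes was called by edgeR's quasi-likelihood test (adjusted p at least 0.961), and 0 had an unadjusted p under 0.05. DESeq2 also called 0. Over all genes tested, KI was called higher for 0.076% (16 genes) and lower for 0.0237% (5 genes), against 27 and 21 genes in the reduced set. Leaving out single libraries gave 7 to 60 genes higher and 1 to 51 lower, with the most without KI 4. Slc8b1 and Efnb1 were the furthest from 0. Slc8b1 had a log2 fold change of 0.45 in KI against KO (95% interval -0.05 to 0.96), and Efnb1 one of -0.45 (95% interval -0.94 to 0.03). For the other 6 genes the interval reached no lower than -0.89 (Sln) and no higher than 0.90 (Gm48277), so all 8 intervals ended within 1 log2 unit of 0. This bound rests on single libraries: without KI 4 the interval ran to -1.15 for Sln, to -1.09 for Efnb1 and to 1.02 for Gm48277, and without KO 2 that of Slc8b1 ran to 1.14. In the reduced set the intervals of these 4 genes also passed 1 log2 unit, as far as -1.32 for Sln and 1.38 for Gm48277.

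**Figure D4:**
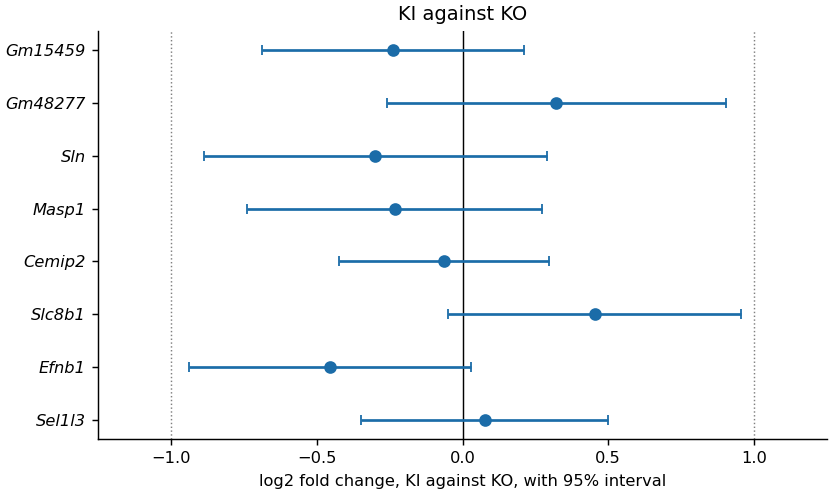
Log2 fold change of KI against KO for the 8 raised genes, with 95% intervals over 6 libraries per genotype. Dotted lines mark 1 log2 unit in each direction. All 8 intervals include 0 and lie within the dotted lines.

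The spread within KI was wide for Gm15459 and Gm48277 and ran in opposite directions. KI 3, KI 5 and KI 6 had the highest Gm48277, between 2.90 and 4.52 CPM against 1.15 to 1.60 CPM in the other 3 KI libraries, and the lowest Gm15459, between 12.6 and 18.4 CPM against 27.9 to 35.3 CPM. After the genotype means were taken out, Pearson's r between the 2 genes over the 18 libraries was -0.78. Between Sln and Cemip2 it was 0.70, the highest of the 28 pairs, and the median was 0.26. These values share libraries and depth and are given as a description. KI 3 and KI 5 were a close pair, as were KI 1 and KI 2, and KI 4 resembled KO 2. The 3 libraries on each side may therefore not be 3 separate samples.

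The same 3 KI libraries had the lowest Leydig cell markers among the mutants. The summed level of 7 Leydig markers was between 10.8 and 22.4 CPM in WT and between 34.2 and 58.9 CPM in KO. In KI it was between 14.7 and 20.4 CPM in KI 3, KI 5 and KI 6 and between 51.5 and 74.8 CPM in the other 3. All 7 markers were higher in both mutants by the test of any change, against 16.4% of all genes tested in KO and 16.1% in KI. None of the 7, Cyp17a1, Insl3 and Star included, was at 3 counts or fewer in every library of a genotype. The 3 low KI libraries lay below WT 6, at 22.4 CPM, and above the other 5 WT libraries, at 10.8 to 12.7 CPM. In these 3, as in all mutant libraries, each of the 8 genes was above every WT library, and the part of Leydig cells in the levels of the 8 genes was not tested. Efnb1 was at 1.37 to 1.64 CPM in these libraries, against 2.47 to 3.17 CPM in the other KI libraries and at most 0.921 CPM in WT. Slc8b1 was at 1.67 to 2.57 CPM against 1.44 to 2.67 CPM, and Masp1 at 0.982 to 1.69 CPM against 1.06 to 1.61 CPM. Sel1l3 was at 2.51 to 3.84 CPM against 2.63 to 4.83 CPM. Sln was at 0.821 to 1.26 CPM against 0.751 to 2.37 CPM, and Cemip2 at 5.39 to 6.78 CPM against 4.91 to 9.23 CPM. With KI 3 and KI 5 a close pair, KI 1 and KI 2 another, and KI 4 like KO 2, these ranges describe few separate samples.

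Position was not used to choose the genes. Of the 8, 3 lie on chromosome 5, 2 on chromosome 9 and 1 each on chromosomes 16, 19 and X. Within 500 kb of their lower coordinates, 63 other genes were tested, of which 16 were higher and 12 lower in KO and 14 higher and 10 lower in KI, where 16.4% and 13.5% of all genes were called in KO and 16.1% and 15.4% in KI. In the reduced set, 7 were higher in KO, and 9 were higher and 5 lower in KI. That set called 1759 of all 21543 genes tested higher in KO, and 1390 higher and 1647 lower in KI.

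Past 1 log2 unit, 3 of the 63 neighbours were called in both mutants, 2 higher and 1 lower. Over all genes tested, 0.598% were called higher and 1.13% lower in KO, and 0.522% and 1.43% in KI. Of the 3 neighbours, 2 lie near Gm48277. Gm48284, 51.3 kb from it, had between 6 and 19 counts in WT, between 39 and 70 in KO and between 48 and 105 in KI, with a log2 fold change of 2.24 (SE 0.27, adjusted p = 0.00812, glmTreat) in KO and 2.67 (SE 0.27, adjusted p = 2.5e-04) in KI. Tmem225, 407 kb from Gm48277 on the other side, fell by 1.79 (SE 0.17, adjusted p = 0.00506) and 1.89 (SE 0.17, adjusted p = 0.00139), from between 845 and 1207 counts in WT. Yipf6, 199.8 kb from Efnb1, encodes a Golgi membrane protein and rose by 1.80 (SE 0.14, adjusted p = 7.84e-04) and 1.64 (SE 0.14, adjusted p = 0.00679), from between 176 and 275 counts in WT. In the reduced set the KI call of Yipf6 past 1 log2 unit was lost (adjusted p = 0.355). The mutants differ from WT at Ddx25 itself, and how far the distance of chromosome 9 genes from it bears on these values was not tested.

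RefSeq promoter windows of 300 bases, 250 before and 50 after the start, were matched by symbol for Gm48277 and Efnb1. They are shown because these were the only 2 of the 8 genes with a matched window. Both are on GRCm38.p6, 5′ to 3′ on the gene's strand, at chr9:40557737-40558036 (minus) and chrX:99135811-99136110 (plus), and the Gm48277 window lies inside the GENCODE span of that gene. Capitals mark the only match, on either strand, to any of 5 motifs that were searched.
Gm48277: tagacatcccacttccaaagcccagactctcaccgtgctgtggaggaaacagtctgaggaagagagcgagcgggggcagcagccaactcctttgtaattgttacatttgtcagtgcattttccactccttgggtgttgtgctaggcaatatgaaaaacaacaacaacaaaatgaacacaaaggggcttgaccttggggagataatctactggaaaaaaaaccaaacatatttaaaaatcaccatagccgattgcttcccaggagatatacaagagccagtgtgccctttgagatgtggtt
Efnb1: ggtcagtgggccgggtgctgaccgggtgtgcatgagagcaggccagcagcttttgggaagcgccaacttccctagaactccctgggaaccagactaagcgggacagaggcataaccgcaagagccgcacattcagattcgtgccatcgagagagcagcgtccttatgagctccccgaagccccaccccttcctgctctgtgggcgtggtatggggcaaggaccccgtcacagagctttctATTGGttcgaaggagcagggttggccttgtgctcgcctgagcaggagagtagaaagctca
The Efnb1 window holds ATTGG, the reverse of the CCAAT box, from base 241, and 37.4% of the 32851 promoter windows hold this motif on either strand. The TATA box (TATAAA) was found in 13.6% of them. The core of the GC box (GGGCGG) was found in 35.7%. The cyclic AMP response element (TGACGTCA) was found in 1.79%, and the E-box (CACGTG) in 7.15%. GC content was 45% in the Gm48277 window and 59.7% in the Efnb1 window, against a median of 52.7%.

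The genes whose pattern was most like each raised gene were taken as those with the highest Pearson r of log2 CPM over the 18 libraries, which rests largely on the difference between WT and the mutants. For Gm15459 they were Rlf (r = 0.97) and Sln (0.97), and for Gm48277 they were its neighbour Gm48284 (0.96), Rc3h2 (0.96) and Asprv1 (0.96). Sln was most like Pdlim4 (0.98), Gm29243 (0.98) and Otud6a (0.97), and Cemip2 most like Sln (0.97), Kcnh4 (0.97) and Sectm1a (0.97). For Masp1 they were Cnga3, Traf4 and Trh (0.94 each), and for Slc8b1 they were Erbb3, Clip2 (0.95 each) and Mafk (0.94). Efnb1 was most like Pik3c2a, Fmr1 (0.96 each) and Adgra3 (0.95), and Sel1l3 most like Meox1 (0.97), Usp51 and Maoa (0.96 each). Among the raised genes themselves r ranged from 0.79 to 0.97, with a median of 0.91 over 28 pairs.

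With the genotype means taken out, the lists changed. Only Pdlim4, for Sln, was in both lists of its gene (0.84). High values included 0.94 for Gm48277 (Gm26802), 0.91 for Gm15459 (Pxylp1), 0.90 for Slc8b1 (Kcnip2), 0.86 for Sln (Gm39363), 0.86 for Cemip2 (Hpgd), 0.86 for Efnb1 (Fgfr1), 0.83 for Sel1l3 (4933406M09Rik) and 0.78 for Masp1 (Astn1). These likenesses share libraries and depth, and no test was made on them.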

How the data were processed

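Messenger RNA was measured in RS of WT, KO and KI mice. The authors used cutadapt 3.4 for trimming of paired reads and STAR 2.7.8a for alignment to GRCm38, marked duplicates without removing them and counted fragments by strand on GENCODE M18 genes with featureCounts (Subread 2.0.1). The deposited values are these raw counts, used without change. Reads placed equally well at several sites are not counted by this counter's default, which bears on genes with near-identical copies. Columns without a library numbered 0.

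Genes were filtered with filterByExpr and scaled by TMM, and genotype was modelled over the 18 libraries in a single quasi-likelihood fit with edgeR 4.0.16 in R 4.3.3 (limma 3.58.1). At the depth of these libraries (18766971 to 26776555 counts) the floor was set at 3 counts. Any change was tested with glmQLFTest and changes past 1 log2 unit with glmTreat, at a Benjamini-Hochberg adjusted p under 0.1 over all 21058 genes. The scripts were tested on simulated data. Positions are those of the count table, symbols were from GENCODE M21 (54079 of 54232 matched), and figures were drawn with matplotlib 3.10.9.

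The members and lists were chosen with earlier results of these data known. Named are the 8 genes, the closest relatives of each coding gene, every partner past 1 log2 unit, the 3 partners per list with the largest change among those called in both mutants, neighbours past 1 log2 unit, and the 3 genes most like each gene in both measures, of which 1 is given for the second. Some genes that this rule selects are not reported here. Alternatives were DESeq2 1.42.0, its size factors, no filter, only the genotypes compared, a replicate block, an adjusted p of 0.05, other windows and leaving out each library.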

Additional observations from a re-analysis of the deposited data

Results flagged for a closer look

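Among the 24 groups of 6 libraries (8 genes in 3 genotypes), 3 had a library set apart from the rest by Dixon's ratio of the gap to the whole range. Chance gives about 1 in 20 groups for normally distributed values. That rate does not hold where all libraries but 1 are at 0, since the ratio is then 1 whatever the count. Gm48277 in WT 5 had a ratio of 1, from 1 count (0.0474 CPM) in a group otherwise at 0. Sln in WT 3 likewise had a ratio of 1, from 2 counts (0.106 CPM). Sln in the library labelled KI 4 had a ratio of 0.684, at 2.37 CPM (56 counts). Without that library the mean of Sln in KI was 1.003 ± 0.232 CPM (SD, n = 5), and with it 1.23 ± 0.595 CPM (SD, n = 6).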

How the results depend on the processing

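Of the values of the 8 genes against WT and the counts of called genes, 691 alternatives stayed close to the reported value and 29 moved. Of the single-gene results, 1789 kept direction and side of the threshold, 80 lost the threshold, 10 gained it and 18 changed sign. The alternative with 1 library of each close pair and without KI 4, chosen after seeing the data, has fewer libraries. It gave 16 partner genes higher in KO, 13 higher and 10 lower in KI, 0 lower past 1 log2 unit in KI, 7 neighbours higher in KO, and 9 higher and 5 lower in KI. Of all 21543 genes tested, it called 1759 higher in KO, and 1390 higher and 1647 lower in KI. It gave log2 ratios of 6.92 and 7.52 for Gm48277, 5.53 and 4.93 for Sln, and 1.58 and 1.45 for Cemip2 (KO and KI), and turned Pln in KI to 0.0226. Partner genes higher in KO numbered 20 with no filter and 20 at an adjusted p of 0.05, against 31. The interval null of glmTreat, also added later, gave 1 partner higher and 2 lower past 1 log2 unit in KI. By construction, a window of 250 kb held fewer neighbours (8 higher and 6 lower in KO, 7 and 4 in KI) and one of 1 Mb more (27 and 20 in KO, 26 and 20 in KI). With Gm15459 and Hspa8 summed, also added later, the log2 fold change was 0.67 in KO and 0.44 in KI. Leaving out single libraries gave 0 to 1 partners higher (1 without KO 1) and 1 to 2 lower (2 without KO 3) past 1 log2 unit in KI, and log2 ranges across 0 of -0.11 to 0.10 for Atp2a1 in KO, -0.276 to 0.0575 for Atp2a3 in KI, -0.10 to 0.25 for Cemip in KO, -0.141 to 0.0561 for Pln in KO, and, in KI against KO, -0.209 to 0.00526 for Cemip2 and -0.0393 to 0.154 for Sel1l3. Atp2a3 in KO was called without KO 4 (log2 fold change -1.26, adjusted p = 0.0582). Without WT 5 for Gm48277 and without WT 3 for Sln no ratio could be computed, since WT was then at 0. The replicate numbers did not pair the libraries (correlations of deviations between -0.44 and 0.48), and with a replicate block the counts were 28 higher and 16 lower partners in KO and 25 and 14 in KI. Apart from the changes in the number of libraries or genes that an alternative makes by construction, the cause was not tested. Depth limits Gm48277 and Sln most, with 1 and 2 counts in WT.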
